A study of Bos taurus with 8 samples.

Results

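Transcripts of the BCL2 family (BCL2, BCL2L1, MCL1, BAX, BAK1, BAD and BID), of the caspase inhibitor XIAP and of the initiator caspase CASP9 were examined in bovine 2-cell embryos. A probe was taken when the annotation of the array platform named 1 of these 9 genes, which gave 15 of the 43794 probes on the array. Of these, 12 probes of 7 genes were bright enough to be tested, and no tested probe of BAK1 or BAD remained. Embryos collected at 29.5 hours post-fertilization (hpf), which the series calls fast, were set against embryos collected at 46 hpf, called slow, and the series asks how their messenger RNA differs. All embryos of both groups came from oocytes of slaughterhouse Holstein ovaries that were matured in vitro with their cumulus cells, fertilized with mixed semen of several bulls and cultured in synthetic oviduct fluid. T7 polymerase was used to amplify their RNA, which was hybridised on 8 2-colour arrays, each holding both groups, with the dyes exchanged between 4 arrays with 29.5 hpf in Cy5 and 4 with it in Cy3. The labels number these as 4 replicates, which the series states to be biological, and how many embryos each held is not stated in the sources used here. Ratios are log2 of 29.5 hpf over 46 hpf throughout, positive where the 29.5 hpf signal was the stronger. Speed of cleavage and time of collection changed together and cannot be told apart, and in such whole-embryo RNA fewer cells of a type and less RNA per cell cannot be told apart either.

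The BCL2 family governs the mitochondrial route of apoptosis. BAX and BAK1 can open the outer mitochondrial membrane, BCL2, BCL2L1 and MCL1 hold them in check, and BH3-only proteins such as BAD and BID act on that balance. Cytochrome c that leaves the mitochondrion assembles APAF1 into the apoptosome, which activates CASP9, the caspase that starts the executioner step, and XIAP binds and blocks CASP9 and executioner caspases. In cattle the major activation of the embryonic genome comes after the 2-cell stage, so most transcripts of such embryos were stored by the oocyte, and BCL2 family transcripts are often measured in bovine embryos as signs of their quality.

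The arrays were checked before the values were compared. Deviations of each array from the mean of its own dye orientation were correlated over the tested probes. The correlation was -0.14 for the pair numbered 1 and -0.19 for the pair numbered 2, against 0.55 and 0.70 for numbers 3 and 4. Number 1 of the orientation with 29.5 hpf in Cy5 correlated with number 2 of the other orientation at 0.64, and number 2 with number 1 at 0.59. The labelled numbers 1 and 2 thus did not pair their arrays. The main values still follow the labelled numbers, as the series gives them. Their SDs, intervals and p-values therefore rest on a pairing that the arrays did not bear out for numbers 1 and 2. SDs or adjusted p-values with these numbers exchanged in 1 orientation stand beside them where named. Exchanging the numbers leaves the mean of a probe as it is and changes its spread. Precision is limited by having 8 arrays, whose median raw signals were 152.1 to 343.8 in Cy5 and 128.5 to 195.7 in Cy3. In the labelled pairing 388 of 31559 tested probes passed an adjusted p of 0.05 in limma, 212 higher and 176 lower at 29.5 hpf, whereas with exchanged numbers 4 were higher and 0 lower. All 12 oocyte and embryo markers on the array, such as GDF9 and ZAR1, were above the negative controls on every array in both groups. Their summed signals were 139775 to 168434 at 29.5 hpf and 135224 to 177792 at 46 hpf. With 0 called, 6 lay above 0 and 6 below, at a median of -0.03. PADI6 was lowest at -0.52 (limma adjusted p = 0.116, or 0.400 with exchanged numbers). BMP15 was at -0.51 (limma adjusted p = 0.208, or 0.478 with exchanged numbers), and ZP2 and H1-8 were highest, each at 0.14. Of 17 cumulus or granulosa markers, 13 were tested and 1 was called, SERPINE2 with a log2 ratio of -1.28 (limma adjusted p = 0.0217, or 0.0609 with exchanged numbers), and 3 were above the controls on all arrays. Of the 13, 5 lay above 0 and 8 below, with a median of -0.03. The uncalled cholesterol transport gene STAR was at 0.67 on its brightest probe, with 8 of 8 arrays above 0 (limma adjusted p = 0.107). Its other tested probes lay at -0.02 and 0.16. The summed signal of the 13 was 33436 to 41392 at 29.5 hpf and 32550 to 35848 at 46 hpf. Of 10 sperm markers 4 were tested, with 0 called and summed signals of 766 to 888 at 29.5 hpf and 767 to 886 at 46 hpf. SPATA18 and SMCP were above the controls on 7 of 8 arrays in each group, PRM2 on 3 at 29.5 hpf and 6 at 46 hpf, TSSK6 on 3 at 29.5 hpf and 5 at 46 hpf, and the other 6 genes on 0 to 2. The part of cumulus or sperm RNA in the results below was not tested.

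No probe of these 9 genes was called: 0 of 12 tested probes passed an adjusted p of 0.05 in limma, against 1.23% of all tested probes (0.558% called lower). Unadjusted limma p-values were under 0.05 for 3 of 12, the probes of XIAP and BCL2 and 1 of BCL2L1, against 16.9% of all tested probes. The same 3 probes had 1 sign in all 4 replicates and on all 8 arrays, which 26% and 7.29% of tested probes had. XIAP stood nearest to the threshold, with less signal at 29.5 hpf in every replicate. Replicates of these genes spread somewhat more than usual, with a median SD of 0.22 over the 12 probes against 0.19 over all tested probes. The median of the absolute log2 ratio was 0.18 for the 12 probes and 0.10 for all tested probes. The offset added in background correction draws the ratios of dim probes towards 0. By the mean plus 2 SD of the negative controls, 1 of the 12 probes, MCL1 EMBV3_00650, was above the limit in both channels of all 8 arrays. Bright control spots raised this limit on 2 arrays. Against median plus 3 MAD, the probes of XIAP, BCL2, BAX, BID and MCL1 were above on 8 arrays in both groups. The same held for BCL2L1 EMBV3_12898 and CASP9 EMBV3_06676. BCL2L1 EMBV3_06599 and EMBV3_29163 and CASP9 EMBV3_02441 were above on 7, 6 and 7 arrays at 29.5 hpf.

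**Figure D1:**
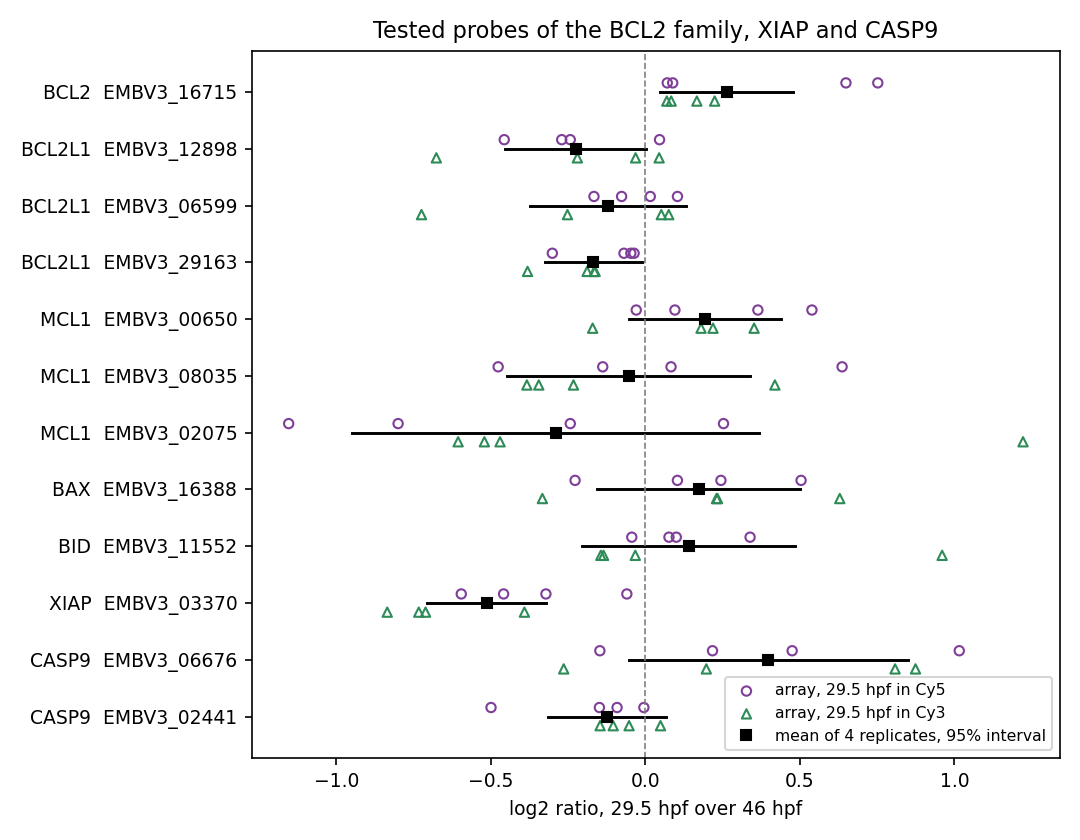
Log2 ratio of 29.5 hpf over 46 hpf (x axis) for the 12 tested probes (y axis). Circles are arrays with 29.5 hpf in Cy5, triangles arrays with 29.5 hpf in Cy3, and squares with bars the mean of 4 replicates with its 95% interval. All 8 XIAP points lie below 0 and all 8 BCL2 points above 0, while points of the MCL1 probe EMBV3_02075 run from -1.15 to 1.22.

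Among the pro-survival genes, BCL2 (EMBV3_16715), the founding member, which keeps the outer mitochondrial membrane closed, had normalized signals of 248, 257 and 353 (lowest, median and highest of 8 arrays) at 29.5 hpf and of 209, 232 and 255 at 46 hpf. The ranges overlapped, but within each of the 8 arrays the 29.5 hpf signal was the higher, with log2 ratios of 0.07 to 0.75. The replicates gave 0.41, 0.08, 0.16 and 0.41, with a mean of 0.26 ± 0.17 (SD, n = 4) and a 95% interval of 0.05 to 0.48 (limma adjusted p = 0.212, unadjusted p = 0.0244). High ratios came from 2 arrays with 29.5 hpf in Cy5, at 0.75 and 0.65, while the other 6 arrays lay between 0.07 and 0.22. With exchanged numbers the SD was 0.18 and the limma adjusted p 0.326.

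BCL2L1, which encodes BCL-XL, the close relative of BCL2, had 3 tested probes, all with a mean below 0. Its brightest probe, EMBV3_12898, had signals of 228, 268 and 303 (lowest, median, highest) at 29.5 hpf and of 255, 316 and 365 at 46 hpf. Most arrays were lower at 29.5 hpf, 6 of 8, and replicate 4 was near 0. The replicates were -0.21, -0.25, -0.46 and 0.01, with a mean of -0.23 ± 0.19 (SD, n = 4) and an interval of -0.45 to 0.0018 (limma adjusted p = 0.300, or 0.449 with exchanged numbers). The dimmer probe EMBV3_29163 was below 0 on all 8 arrays (-0.38 to -0.04), a pattern that 3.79% of tested probes showed. Its signals were 170, 199 and 282 at 29.5 hpf and 203, 225 and 348 at 46 hpf, and it was above the negative controls on 4 of 8 arrays at 29.5 hpf and on 7 of 8 at 46 hpf. Its mean was -0.17 ± 0.06 (SD, n = 4) with an interval of -0.33 to -0.01 (limma adjusted p = 0.268, or 0.389 with exchanged numbers). The remaining probe, EMBV3_06599, split 4 arrays to 4 around 0, with replicates of 0.08, 0.05, -0.40 and -0.21 and a mean of -0.12 ± 0.23 (SD, n = 4; limma adjusted p = 0.635, or 0.723 with exchanged numbers). Its signals were 214 to 310 at 29.5 hpf and 258 to 354 at 46 hpf.

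MCL1, a short-lived pro-survival protein known for its rapid turnover, also had 3 tested probes, and their means did not share a sign. On the brightest probe, EMBV3_00650, signals were 1688, 2091 and 2352 (lowest, median, highest) at 29.5 hpf and 1553, 1815 and 2181 at 46 hpf. These ranges overlapped for most of their length. Replicates 1 to 3 were above 0 (0.36, 0.16 and 0.36) and replicate 4 was at -0.10, for a mean of 0.19 ± 0.22 (SD, n = 4) and an interval of -0.05 to 0.44 (limma adjusted p = 0.414, or 0.543 with exchanged numbers). The probe EMBV3_08035 had replicates of -0.35, -0.13, -0.26 and 0.53 and a mean of -0.05 ± 0.40 (SD, n = 4; limma adjusted p = 0.909, or 0.934 with exchanged numbers). The probe EMBV3_02075 varied more than any other tested probe of the 9 genes, with replicates of -0.81, -0.42, 0.74 and -0.66 and a mean of -0.29 ± 0.70 (SD, n = 4; limma adjusted p = 0.666, or 0.747 with exchanged numbers). Replicate 3 alone was above 0 on this probe, and without it the mean was -0.63 (limma adjusted p = 0.107). Replicate 4 stood alone above 0 on EMBV3_08035 and alone below 0 on EMBV3_00650, so probes annotated to the same gene did not follow each other across replicates. Which MCL1 transcripts each probe measures was not tested.

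**Figure D2:**
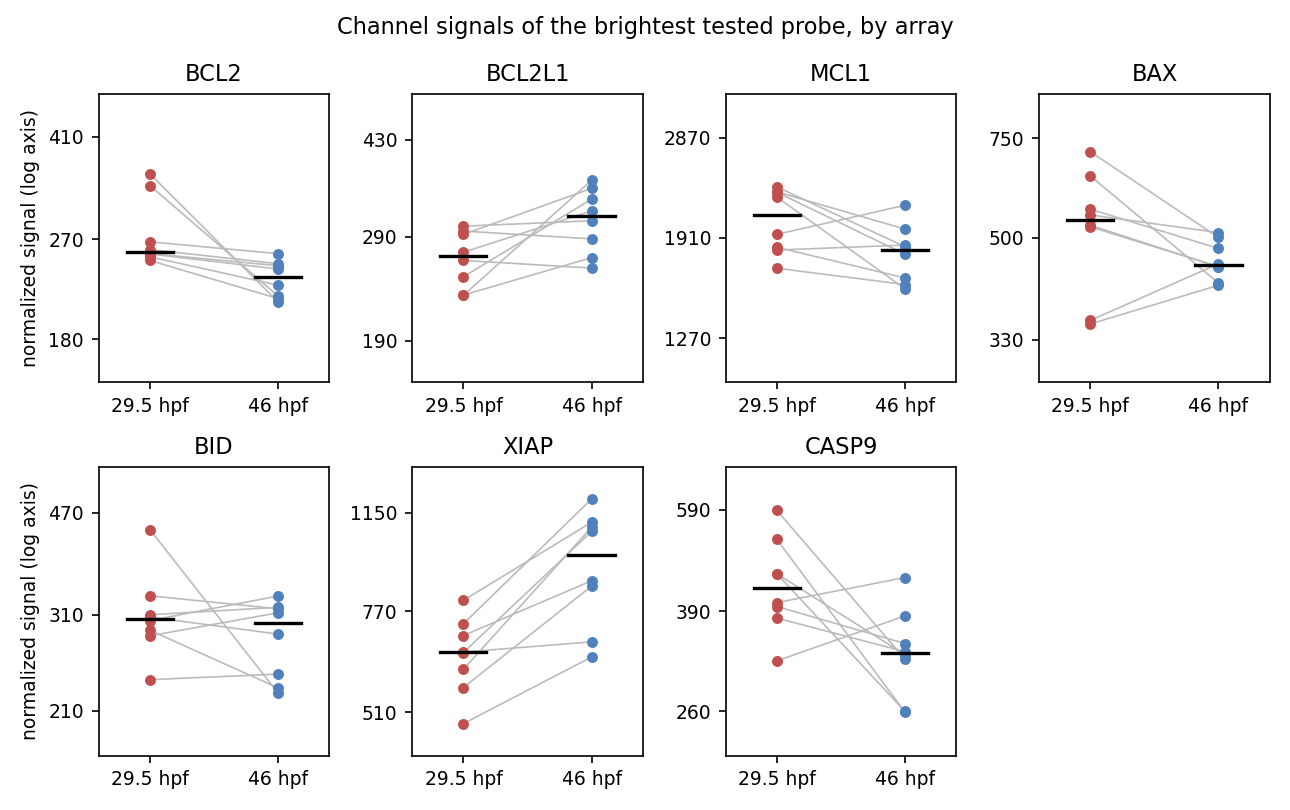
Normalized signal (y axis, log scale, own range in each panel) of the brightest tested probe of 7 genes in the 29.5 hpf and 46 hpf channels (x axis). Grey lines join the channels of 1 array, and black bars are medians of 8 arrays. XIAP lines all run upward from 29.5 hpf to 46 hpf, with medians of 651 at 29.5 hpf and 963 at 46 hpf, and BCL2 lines all run downward.

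BAX, an effector that forms the pore in the outer mitochondrial membrane, was measured by the probe EMBV3_16388. Its signals were 352, 538 and 710 (lowest, median, highest) at 29.5 hpf and 412, 448 and 511 at 46 hpf, so the 29.5 hpf range enclosed the 46 hpf range. Replicates 1, 2 and 4 were above 0 (0.37, 0.17 and 0.44) and replicate 3 below it (-0.28), on both of its arrays. The mean was 0.17 ± 0.32 (SD, n = 4) with an interval of -0.16 to 0.50 (limma adjusted p = 0.601, or 0.695 with exchanged numbers), and 0.32 without replicate 3. BAK1, the other effector, was above the negative controls on 0 of 8 arrays at 29.5 hpf and on 1 of 8 at 46 hpf (EMBV3_05542), so no ratio is given for it.

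Of the BH3-only genes, BAD, whose product binds and neutralizes BCL2 and BCL-XL, was above the negative controls on 1 of 8 arrays at 29.5 hpf and on 0 of 8 at 46 hpf (EMBV3_13375). That single spot, on the array numbered 3 with 29.5 hpf in Cy5, read 1022 in raw signal, whereas the other 7 arrays read 63.6 to 164 at 29.5 hpf, and all 8 read 51.3 to 180 at 46 hpf. BID, which links death receptors to mitochondria once it is cleaved, gave signals of 238, 305 and 439 (lowest, median, highest) at 29.5 hpf and of 225, 299 and 335 at 46 hpf (EMBV3_11552). The 8 arrays split 4 to 4 around 0. Replicates 1, 2 and 4 lay at -0.09, 0.02 and -0.02 and replicate 3 at 0.65, so the mean of 0.14 ± 0.34 (SD, n = 4) rested on replicate 3 and was -0.03 without it. The interval was -0.21 to 0.49 (limma adjusted p = 0.695, or 0.763 with exchanged numbers).

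XIAP (EMBV3_03370), the inhibitor of apoptosis that binds active caspases directly, had the lowest p of the 12 probes, ranking 438 of 31559. Its normalized signals were 487, 651 and 804 (lowest, median, highest of 8 arrays) at 29.5 hpf and 638, 963 and 1215 at 46 hpf. Ranges overlapped between arrays, but on every array the 29.5 hpf signal was the lower, with log2 ratios of -0.83 to -0.06 and a median of -0.53. The replicates were -0.45, -0.36, -0.65 and -0.60, a mean of -0.51 ± 0.14 (SD, n = 4) with an interval of -0.70 to -0.32, which puts the signal at 29.5 hpf at 70.1% of that at 46 hpf. The limma adjusted p of 0.0529 missed the threshold of 0.05, at an unadjusted p of 7.35e-04. With exchanged numbers the SD was 0.19 and the limma adjusted p 0.138. The ratio differed with the dye, at -0.36 on the 4 arrays with 29.5 hpf in Cy5 and -0.67 on the 4 with it in Cy3. Arrays whose titles open with the same number (140, 141 or 142) gave means of -0.41, -0.53 and -0.61, in that order of numbers. Both arrays of 141 had 29.5 hpf in Cy5 and all 3 of 142 had it in Cy3, so for these the title number and the dye cannot be told apart. The labels do not say what this number stands for.

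The value of XIAP EMBV3_03370 kept its sign under every setting tried, while its call depended on the setting. Its log2 ratio ran from -0.79 with median centring in place of loess to -0.36 on the arrays with 29.5 hpf in Cy5 alone. It passed the limma threshold without background correction (adjusted p = 0.0488), over the 8 arrays with the labelled replicate block (adjusted p = 0.0170), with a dye term and no block (adjusted p = 0.00789), with the title number as block (adjusted p = 0.00309), and with 1 mean per gene (adjusted p = 0.0448). Of the fits over 8 arrays, 1 had no block. The block correlation that limma estimated, on Cy5 over Cy3, was -0.21 for the labelled numbers and -0.24 for the title numbers. On Cy5 over Cy3 a dye-swapped pair changes sign, so a negative value there is a positive one between the turned ratios of such a pair. The labelled block thus carried a positive correlation for numbers 3 and 4, but also joined numbers 1 and 2 as labelled. Of the pairs by exchanged numbers, the title block joined only number 2 with 29.5 hpf in Cy5 to number 1 of the other orientation. The fit with no block carried none. Deviations of the arrays paired by the exchanged numbers correlated at 0.55 to 0.70, more than either block estimate in size. XIAP missed the threshold under the other settings that gave a p, where the limma adjusted p reached 0.206 without replicate 1. On the log ratios of the authors' deposited table, its mean was -0.62 (limma adjusted p = 0.205).

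**Figure D3:**
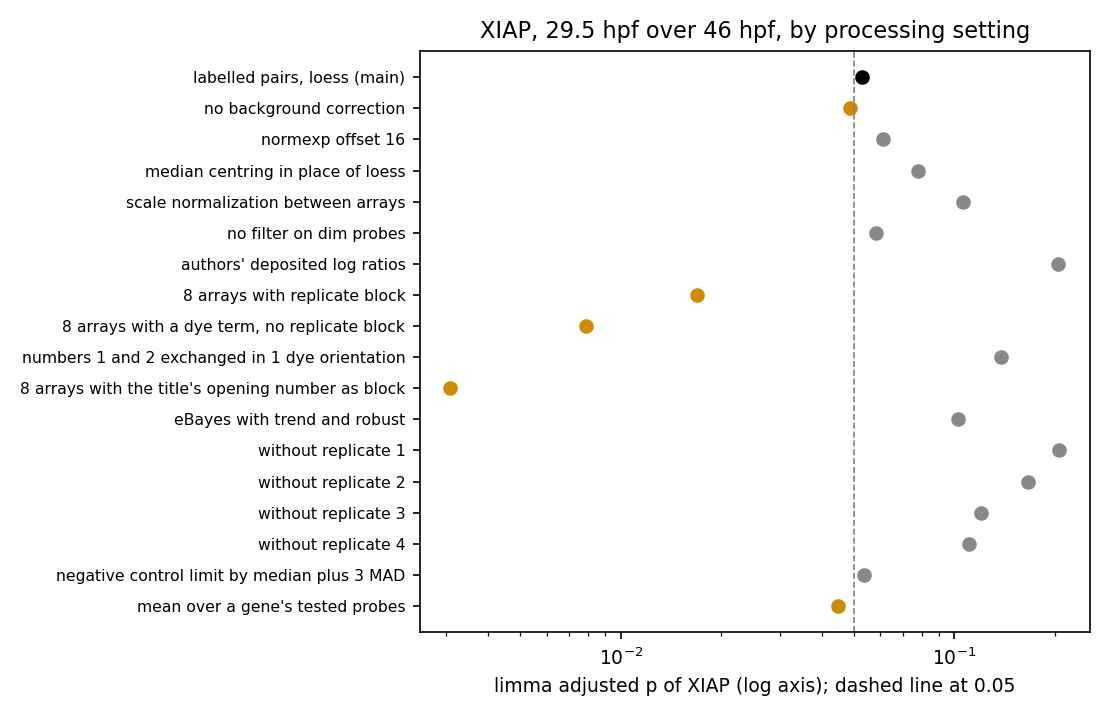
Adjusted p from limma for XIAP (x axis, log scale) under each processing setting that gave a p (y axis). The dashed line marks 0.05, orange points lie under it and grey points above it, and the black point is the labelled pairing with loess at 0.0529. The 5 orange points run from 0.00309 to 0.0488.

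CASP9, the initiator caspase of the apoptosome and a target of XIAP, had 2 tested probes with means on either side of 0. The brightest, EMBV3_06676, had signals of 319, 429 and 589 (lowest, median, highest) at 29.5 hpf and of 259, 329 and 448 at 46 hpf. Replicates 1 and 2 lay near 0 (0.03 and -0.02), while replicates 3 and 4 lay at 0.67 and 0.91. The mean was 0.40 ± 0.47 (SD, n = 4) with an interval of -0.05 to 0.85 (limma adjusted p = 0.357, or 0.501 with exchanged numbers), and 6 of 8 arrays were above 0. The second probe, EMBV3_02441, was below 0 on 7 of 8 arrays, with replicates of -0.12, 0.02, -0.10 and -0.30. Its mean was -0.12 ± 0.13 (SD, n = 4; limma adjusted p = 0.505, or 0.603 with exchanged numbers), and its signals were 195 to 309 at 29.5 hpf and 244 to 298 at 46 hpf. The last CASP9 probe, EMBV3_15406, was above the negative controls on 3 of 8 arrays in each group and was not tested.

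Members with opposed roles were also set against each other within arrays, as descriptions without a test, by subtracting the log2 ratios of their brightest probes. BAX minus BCL2L1 was above 0 on all 8 arrays (0.016 to 0.96), with replicates of 0.57, 0.41, 0.18 and 0.43 and a mean of 0.40 ± 0.16 (SD, n = 4). The SD of this difference was 0.23 with exchanged numbers. The BCL2L1 probe here was EMBV3_12898. On the array numbered 3 with 29.5 hpf in Cy5, BAX was at -0.23. The other tested BCL2L1 probes lay above that on the same array, EMBV3_06599 at -0.08 and EMBV3_29163 at -0.05. With either of them the difference was thus not above 0 on all 8 arrays. How often other gene pairs kept 1 sign on all 8 arrays was not tested. BAX minus BCL2 averaged -0.09 ± 0.24 and BAX minus MCL1 averaged -0.02 ± 0.48 (SD, n = 4 each), and arrays lay on both sides of 0 for each. CASP9 minus XIAP averaged 0.91 ± 0.59 (SD, n = 4), with replicates of 0.47, 0.33, 1.33 and 1.51, and was above 0 on 7 of 8 arrays. It used the CASP9 probe EMBV3_06676 with a mean of 0.40, whereas the other tested CASP9 probe had a mean of -0.12. BID minus BCL2 averaged -0.12 ± 0.46 (SD, n = 4).

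The rest of the pathway was described with 55 further apoptosis genes, of which 44 were on the array and 36 were tested, each by its brightest tested probe. None was called: 0 of 36 passed an adjusted p of 0.05 in limma, against 1.54% of all genes, and 10 of 36 had an unadjusted p under 0.05, against 19.7% of all genes. Ratios lay above 0 for 17 and below 0 for 19, with a median of -0.02 against -0.01 over all genes. They ran from -0.48 for BECN1, the autophagy protein that carries a BH3 domain, to 1.20 for BIRC6, a giant inhibitor of apoptosis that attaches ubiquitin. BIRC6 averaged 1.20 ± 0.48 (SD, n = 4), with replicates of 0.70 to 1.79 and all 8 arrays above 0 (limma adjusted p = 0.0545, or 0.130 with exchanged numbers). Its other tested probes lay at 0.21 and 0.40, well under the brightest. BIRC6 and XIAP belong to the same protein family, and their brightest probes had opposite signs on all 8 arrays.

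**Figure D4:**
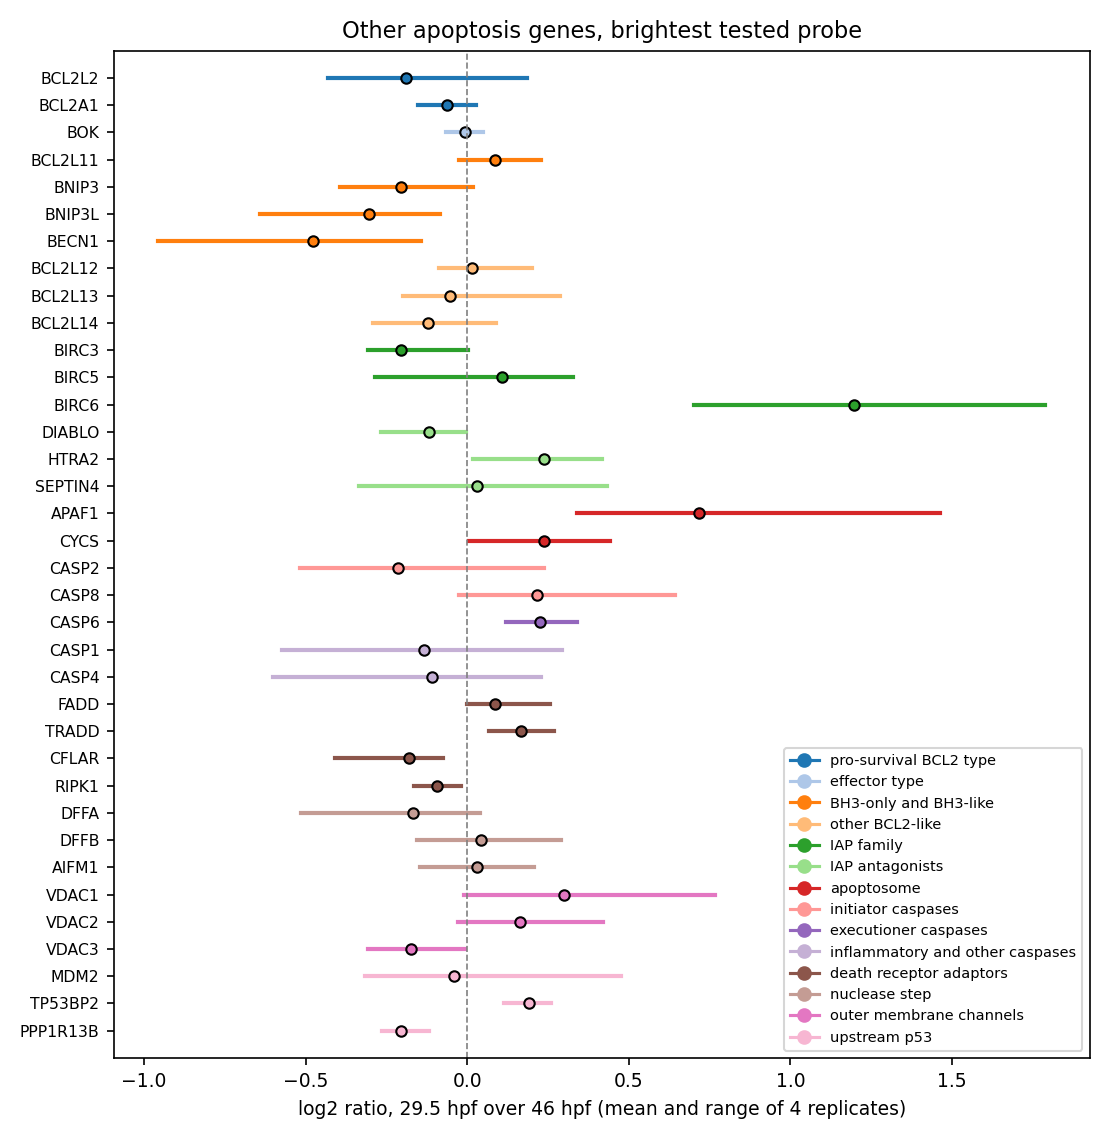
Log2 ratio of 29.5 hpf over 46 hpf (x axis) of the brightest tested probe of 36 further apoptosis genes (y axis), coloured by role. Points are means and bars the range of 4 replicates. BIRC6 at 1.20 and APAF1 at 0.72 lie farthest above 0, and BECN1 at -0.48 farthest below.

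In the other inhibitors of apoptosis, BIRC3 was at -0.20 ± 0.14 (SD, n = 4) and BIRC5, or survivin, which also acts in cell division, at 0.11 ± 0.28 (SD, n = 4), with its other tested probe at -0.19. Among proteins that release caspases from XIAP, HTRA2 was at 0.24 ± 0.19 and DIABLO at -0.12 ± 0.11 (SD, n = 4 each), and SEPTIN4 at 0.03 ± 0.41 (SD, n = 4), with its other tested probe at -0.12. Both apoptosome genes lay above 0, APAF1, the scaffold that recruits CASP9, at 0.72 ± 0.51 (SD, n = 4) with all 8 arrays above 0 (limma adjusted p = 0.151, or 0.301 with exchanged numbers), and CYCS, cytochrome c, at 0.24 ± 0.21 (SD, n = 4). None of these genes was called. The caspases gave no common sign. The executioner CASP6 was at 0.23 ± 0.09, with 7 of 8 arrays above 0, CASP8 of the death receptor route at 0.22 ± 0.30 and CASP2 at -0.21 ± 0.32 (SD, n = 4 each).

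Closer to the BCL2 family itself, the pro-survival BCL2L2 was at -0.19 ± 0.29, BCL2A1 at -0.06 ± 0.08 and the effector-like BOK at -0.01 ± 0.05 (SD, n = 4 each). BNIP3L and BNIP3, receptors for the removal of mitochondria, were at -0.30 ± 0.24 and -0.21 ± 0.21 (SD, n = 4 each), and BECN1 at -0.48 ± 0.35 (SD, n = 4) with all 8 arrays below 0 (limma adjusted p = 0.174, or 0.347 with exchanged numbers). The remaining tested BH3-only gene of the further list, BCL2L11, was at 0.09 ± 0.12 (SD, n = 4), and BID at 0.14 as given above. Of these genes in the further list, 2 of 2 pro-survival genes, BOK and 3 of 4 BH3-only or BH3-like genes thus lay below 0. Over all genes 51.3% were below 0. Whether the group differs from all genes was not tested, and 0 of the group were called. Among the death receptor adaptors TRADD was at 0.17 ± 0.08 with 8 of 8 arrays above 0, and CFLAR, which blocks CASP8, at -0.18 ± 0.15 with 8 of 8 below 0 (SD, n = 4 each). RIPK1, a kinase of the same route, was at -0.09 ± 0.06 (SD, n = 4). The mitochondrial channels VDAC1, VDAC2 and VDAC3 were at 0.30 ± 0.34, 0.16 ± 0.21 and -0.17 ± 0.12 (SD, n = 4 each). TP53BP2, a partner of p53 that promotes its action on apoptosis genes, was at 0.19 ± 0.07, and its relative PPP1R13B at -0.21 ± 0.06 (SD, n = 4 each). MDM2, the ubiquitin ligase that removes p53, was at -0.04 ± 0.35 (SD, n = 4). In the nuclease step, DFFB, the nuclease that cuts DNA in apoptosis, was at 0.04 ± 0.18, its inhibitor DFFA at -0.17 ± 0.25 and the mitochondrial flavoprotein AIFM1 at 0.03 ± 0.14 (SD, n = 4 each). The inflammatory caspases CASP1 and CASP4 were at -0.13 ± 0.43 and -0.11 ± 0.36, and the BCL2-like BCL2L12, BCL2L13 and BCL2L14 at 0.01 ± 0.13, -0.05 ± 0.23 and -0.12 ± 0.20 (SD, n = 4 each). A further tested probe had the opposite sign for CASP4 (0.09), BCL2L12 (-0.19) and BCL2L13 (0.03). With exchanged numbers the SD was higher for 25 of the 34 named genes of the further list, among them PPP1R13B (0.25), HTRA2 (0.46), BCL2L2 (0.63) and TP53BP2 (0.16), and the limma adjusted p of the 34 was 0.130 to 0.982.

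Genes with the most similar pattern were found by the root mean square difference over the 8 array log2 ratios, among genes whose ratios ranged at least as widely as the gene in question. All arrays share the same design and dyes, so these are descriptions of likeness over 8 arrays. For XIAP the nearest were ARL6IP1 (difference 0.181), itself called lower at 29.5 hpf with a mean of -0.59 (limma adjusted p = 0.0376, a call lost with exchanged numbers at 0.143), and TASP1 (difference 0.210). BID was matched most closely by XKR8 (0.0835), BCL2L1 by HEXA (0.0953) and BCL2 by MAPT (0.122). MCL1 was nearest to GABRG1 (0.134), BAX to PPA1 (0.141) and CASP9 to DHX57 (0.150). The second in line were NDUFA12 for BCL2 (0.132), CCDC86 for BCL2L1 (0.133), KLF15 for MCL1 (0.136), SLC39A13 for BAX (0.143), NR2C2AP for BID (0.129) and HNRNPH2 for CASP9 (0.170).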

How the data were processed

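The deposited scanner files hold linear intensity values per spot, the mean signal and the median local background for Cy5 and Cy3 per the file headers, not normalized. A value table deposited by the authors gives log2 ratios; how they normalized these is not stated in the sources used here. Compared with the scanner log2 ratios, its columns had slopes of 1.10 to 1.64 in size and already ran as 29.5 hpf over 46 hpf, with medians of -0.0151 to 0.0120. It was used as an alternative for its 43776 probes.

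Normexp (offset 50) was used to correct background, and each array was normalized by loess, with 1418 control spots and 28 to 186 left-out spots per array at weight 0 (limma 3.58.1, R 4.3.3). Arrays with 46 hpf in Cy5 were turned in sign, and the arrays of each labelled replicate number were then averaged. Tested probes were those above the mean plus 2 SD of 153 negative controls on at least 4 of 8 arrays in 1 group, with at least 3 replicates. On 2 arrays a few bright control spots set this Cy5 limit at 807 and 723, against 200 and 209 by median plus 3 MAD. The mean of 4 replicates was tested against 0 with limma (lmFit, eBayes), two-sided; p-values were adjusted by Benjamini-Hochberg across 31559 probes, with 0.05 as threshold. The fit was tested on simulated data in which both arrays of each labelled number shared 1 replicate value. The arrays numbered 1 and 2 did not pair in that way, so the simulation cannot speak for the fit there.

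Probes were named from the platform annotation, where 22013 had no symbol, and symbols were updated through the RefSeq table of assembly ARS-UCD2.0. Probe coordinates and sequences were not used here. Named were all 9 genes with all their probes, any called gene of the further list, up to 3 genes with the smallest p in each role of it, and for each gene the 2 most alike. BCL2L11 and the named marker genes were picked after their values were seen. A gene outside the 9 is given by its brightest tested probe. The members, lists and tests were chosen with earlier results of these data known. Alternatives covered background, normalization, the filter, the authors' values, pairing, title number, dye orientation, the variance model, left-out replicates and the mean over probes.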

Additional observations from a re-analysis of the deposited data

Results flagged for a closer look

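Of 46 groups of 4 replicate values examined for a value far from the rest, 3 held one, where chance gives about 5%. In each it was replicate 3. On the BID probe replicate 3 lay at 0.65 and the others between -0.09 and 0.02, a gap of 0.844 of the whole range. For BCL2L13 (EMBV3_19037), a BCL2-like protein of the mitochondrial membrane, replicate 3 lay at 0.29 and the others between -0.20 and -0.14, a gap of 0.875 of the range. For CFLAR (EMBV3_30430), the inhibitor of CASP8, replicate 3 lay at -0.41 and the others between -0.12 and -0.07, a gap of 0.849 of the range. Both arrays of replicate 3 shared the direction on the BID probe, at 0.34 with 29.5 hpf in Cy5 and 0.96 with it in Cy3.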

How the results depend on the processing

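The count of called probes of the 9 genes, 0 of 12 in limma with 3 at an unadjusted p under 0.05, was 1 (XIAP, lower) without background correction, with the replicate block over 8 arrays, with a dye term and no replicate block, and with the mean over a gene's probes. It was 3 with the title number as block, XIAP and the BCL2L1 probe EMBV3_29163 lower (limma adjusted p = 0.0353) and BCL2 higher (limma adjusted p = 0.0323). That setting called 2146 probes higher and 2521 lower of all 31559 tested. For the further list the count, 0 of 36, was 1 (BIRC6) without background correction, with the replicate block and with no replicate block. When probes had to be above the controls in both channels on all arrays, 17 of these genes and 1 probe of the 9 genes were left. The count for the further list was then 2 (BIRC6, limma adjusted p = 0.00672, and APAF1, limma adjusted p = 0.0360). Of all 6905 probes left by that filter, 525 were called higher and 459 lower. With the title number as block the count was 6 of 36, beside the same 2146 and 2521 calls over all probes. Leaving out replicates gave counts of 0 to 0 for both, with 1 to 4 of 12 probes and 4 to 10 of 36 genes at an unadjusted limma p under 0.05, where all probes had 12.6% to 16.4% and all genes 15.0% to 19.5%. A limit of median plus 3 MAD, chosen after seeing the data, left both counts at 0.

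Means turned in sign for MCL1 EMBV3_00650 with median centring (-0.12) and over the gene's probes (-0.050), for BAX with median centring (-0.036), for BCL2L1 EMBV3_06599 within title number 140 (0.057), for BID within 140 (-0.037) and without replicate 3 (-0.030, range over left-out replicates -0.030 to 0.22), for MCL1 EMBV3_02075 within 142 (0.032), and for MCL1 EMBV3_08035 within 141 (0.25), with 29.5 hpf in Cy5 alone (0.026), without replicate 1 (0.046) and without replicate 3 (0.014, range over left-out replicates -0.25 to 0.046). XIAP, BCL2, CASP9 and the other BCL2L1 probes kept their sign under every alternative run. Of 731 values of 34 further genes under alternatives, 684 moved by under 1 SD. The cause of these changes was not tested.

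Over all probes, 212 higher and 176 lower calls became 364 and 290 without background correction, 525 and 459 of 6905 with the strict filter, 573 and 559 with the replicate block, 952 and 964 without it, 2146 and 2521 with the title number as block, 43 and 16 with a variance trend, 11 and 1 on the authors' values, 4 and 0 with exchanged numbers, and 0 and 0 with median centring, with scaling between arrays and without any 1 replicate. The labelled numbers 1 and 2 correlated negatively, so the replicate block does not stand for shared samples there.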
